A study of Mus musculus with 30 samples.

Results

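The Schlafen genes are a mouse gene family on chromosome 11. The 7 members followed here are Slfn1, Slfn2, Slfn3, Slfn4, Slfn5, Slfn8 and Slfn9, chosen by matching Ensembl identifiers to these symbols, out of 55471 genes in the count table. All 7 passed the filter on low counts, as did 15505 genes in all. Relatives outside this set were almost silent: Slfn14 had 25 reads over all 30 libraries, the related Slfnl1 on chromosome 4 had 19, and the antisense transcript Slfn5os had 5. The pseudogene Slfn10-ps, which lies inside the cluster, is not a member and is described beside its neighbours.

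RNA was sequenced from MC38 tumours, a mouse colon carcinoma line grown under the skin of female C57BL/6 mice aged 6 to 8 weeks at inoculation. The cells were wild type (WT) or had lost the function of B2m (B2mKO) or of Jak1 (Jak1KO), and the host mice had no labelled mutation. Mice received 100 µg of an antibody against PD-1 (aPD1) or of an IgG1 isotype control into a vein on days 7, 10 and 13, and tumours were taken on day 14. Each of the 6 combinations had 5 libraries. The protein made from B2m is part of every MHC class I molecule, and Jak1 is a kinase at interferon receptors. The labels do not say whether each knockout line was 1 clone, nor that each library was a separate mouse, and all tests below therefore reflect only how far these libraries vary, which may be technical. A tumour piece also holds host cells with both genes intact, and some B2m and Jak1 reads remained in the knockout tumours. B2m was at 3090 ± 911 CPM (the gene's reads scaled to library size, given with SD, n = 5) in WT IgG1 tumours. In B2mKO IgG1 tumours it was at 617 ± 112 CPM. Jak1 was at 232 ± 28.7 CPM in WT IgG1 tumours and 71.5 ± 4.98 CPM in Jak1KO IgG1 tumours. Whether the remaining reads came from host cells or from the knockout cells was not tested. WT IgG1 replicate 3 and B2mKO aPD1 replicate 2 were the libraries least like their groups over all genes (median r with the other 4 of 0.957 and 0.955), and are called here the libraries that stand apart.

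Schlafen proteins take their name from the German word for sleeping, because Slfn1 stops the growth of thymocytes when it is expressed there. Short members (Slfn1, Slfn2), intermediate members (Slfn3, Slfn4) and long members with a helicase-like part (Slfn5, Slfn8, Slfn9) are told apart by the length of the protein. Many family members are induced by type I interferon, which signals through Jak1, Tyk2, Stat2 and Irf9 to interferon-stimulated response elements (ISRE) in promoters. Slfn2 is needed for quiescence of T cells and monocytes and protects transfer RNAs from cleavage, and Slfn4 is known from macrophages and other myeloid cells.

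The members lie in 263.8 kb of chromosome 11 (GRCm38, 82951349 to 83215154), with 22 annotated genes in the interval. From low to high coordinate they are Slfn5 (ENSMUSG00000054404, 82951349 to 82964840, plus strand), Slfn9 (ENSMUSG00000069793, 82978390 to 82991830, minus), Slfn8 (ENSMUSG00000035208, 83002158 to 83020810, minus), Slfn2 (ENSMUSG00000072620, 83065112 to 83070678, plus), Slfn1 (ENSMUSG00000078763, 83116849 to 83122670, plus), Slfn4 (ENSMUSG00000000204, 83175186 to 83190216, plus) and Slfn3 (ENSMUSG00000018986, 83191330 to 83215154, plus). The long members are thus together at the low end of the cluster and the short and intermediate members follow. RefSeq windows of 300 bases on GRCm38.p6 (250 bases before to 50 after the start) were found for all 7 members and searched on both strands. Those printed belong to the 6 members that passed the test between genotypes in at least 1 of the comparisons that follow, all but Slfn3. Capitals mark the ISRE core (GAAA, any 2 bases, GAAA again) or its reverse complement in the long members, and AGGAAGT or its reverse complement, an ETS-type motif, in the short and intermediate members.
Slfn8 (chr11:83020761-83021060, minus strand): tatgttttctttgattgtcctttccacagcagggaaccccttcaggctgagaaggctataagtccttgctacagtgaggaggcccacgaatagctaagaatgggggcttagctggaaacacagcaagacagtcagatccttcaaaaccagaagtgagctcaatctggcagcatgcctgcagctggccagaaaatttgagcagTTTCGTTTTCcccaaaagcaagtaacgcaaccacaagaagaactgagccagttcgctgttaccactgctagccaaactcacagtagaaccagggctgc
Slfn9 (chr11:82991781-82992080, minus strand): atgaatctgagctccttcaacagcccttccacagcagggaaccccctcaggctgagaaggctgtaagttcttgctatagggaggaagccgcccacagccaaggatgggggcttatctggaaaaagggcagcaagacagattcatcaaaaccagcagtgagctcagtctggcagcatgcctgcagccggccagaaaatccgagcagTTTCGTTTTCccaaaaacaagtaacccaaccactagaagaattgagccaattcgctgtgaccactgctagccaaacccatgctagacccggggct
Slfn5 (chr11:82951852-82952151, plus strand): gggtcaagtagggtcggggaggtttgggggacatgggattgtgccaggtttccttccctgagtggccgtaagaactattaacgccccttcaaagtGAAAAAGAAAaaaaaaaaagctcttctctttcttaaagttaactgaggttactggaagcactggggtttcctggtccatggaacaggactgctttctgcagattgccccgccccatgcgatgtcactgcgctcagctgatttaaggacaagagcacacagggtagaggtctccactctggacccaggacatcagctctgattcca
Slfn4 (chr11:83174936-83175235, plus strand): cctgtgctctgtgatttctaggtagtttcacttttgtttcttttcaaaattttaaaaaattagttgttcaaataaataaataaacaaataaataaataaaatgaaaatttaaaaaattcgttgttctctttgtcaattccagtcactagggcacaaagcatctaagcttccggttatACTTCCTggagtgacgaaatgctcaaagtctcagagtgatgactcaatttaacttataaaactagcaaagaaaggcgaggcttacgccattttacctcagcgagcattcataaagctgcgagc
Slfn2 (chr11:83064862-83065161, plus strand): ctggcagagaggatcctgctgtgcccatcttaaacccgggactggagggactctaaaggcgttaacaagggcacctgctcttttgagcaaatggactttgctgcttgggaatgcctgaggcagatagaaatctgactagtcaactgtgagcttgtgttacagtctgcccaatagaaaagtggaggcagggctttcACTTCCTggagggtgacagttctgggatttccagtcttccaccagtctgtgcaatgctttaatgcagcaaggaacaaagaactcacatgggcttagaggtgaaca
Slfn1 (chr11:83116570-83116869, plus strand): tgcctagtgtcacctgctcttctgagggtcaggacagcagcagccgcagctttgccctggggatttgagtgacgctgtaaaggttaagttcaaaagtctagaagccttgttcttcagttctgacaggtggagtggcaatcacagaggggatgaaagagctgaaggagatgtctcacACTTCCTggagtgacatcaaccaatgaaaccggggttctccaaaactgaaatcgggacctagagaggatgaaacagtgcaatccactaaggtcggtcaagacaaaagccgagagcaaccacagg

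The windows of Slfn8 and Slfn9 held the same ISRE letters at nearly the same place, TTTCGTTTTC beginning at base -48 in Slfn8 and -45 in Slfn9, counted from the start. Slfn5 held GAAAAAGAAA from base -155, within a run of A. No ISRE core was in the windows of Slfn1, Slfn2, Slfn3 or Slfn4. That is the usual case, since only 3.44% of all 32851 windows of the same length hold it. AGGAAGT, a motif picked after these sequences had been read, was in the windows of Slfn1 (from base -74), Slfn2 (-55), Slfn3 (-59 and -42) and Slfn4 (-73) and in none of the long members, against 9.35% of all windows. The interferon gamma-activated site core TTCNNNGAA was in no member's window and in 8.3% of all windows. The longest run of identical letters between members' windows was 20 bases, tctggcagcatgcctgcagc, shared by Slfn8 and Slfn9. These matches describe letters in a short window. RefSeq gives Slfn8 another start 88 bases downstream, and RefSeq's starts of Slfn1 and Slfn5 are not those of the counted gene models.

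Per kilobase of exon, Slfn2 had the highest median level over the 30 libraries (36.5 CPM per kb), followed by Slfn9 (23.5), Slfn8 (13.8), Slfn1 (9.07), Slfn4 (8.57), Slfn5 (7.56) and Slfn3 (3.40). The ranges over libraries overlapped between all neighbours in this order. Slfn2 ranged from 17.5 to 95.6 CPM per kb, and Slfn3 stayed between 2.61 and 4.81. Together the 7 genes took 0.0185 to 0.0673% of a library's counts.

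**Figure D1:**
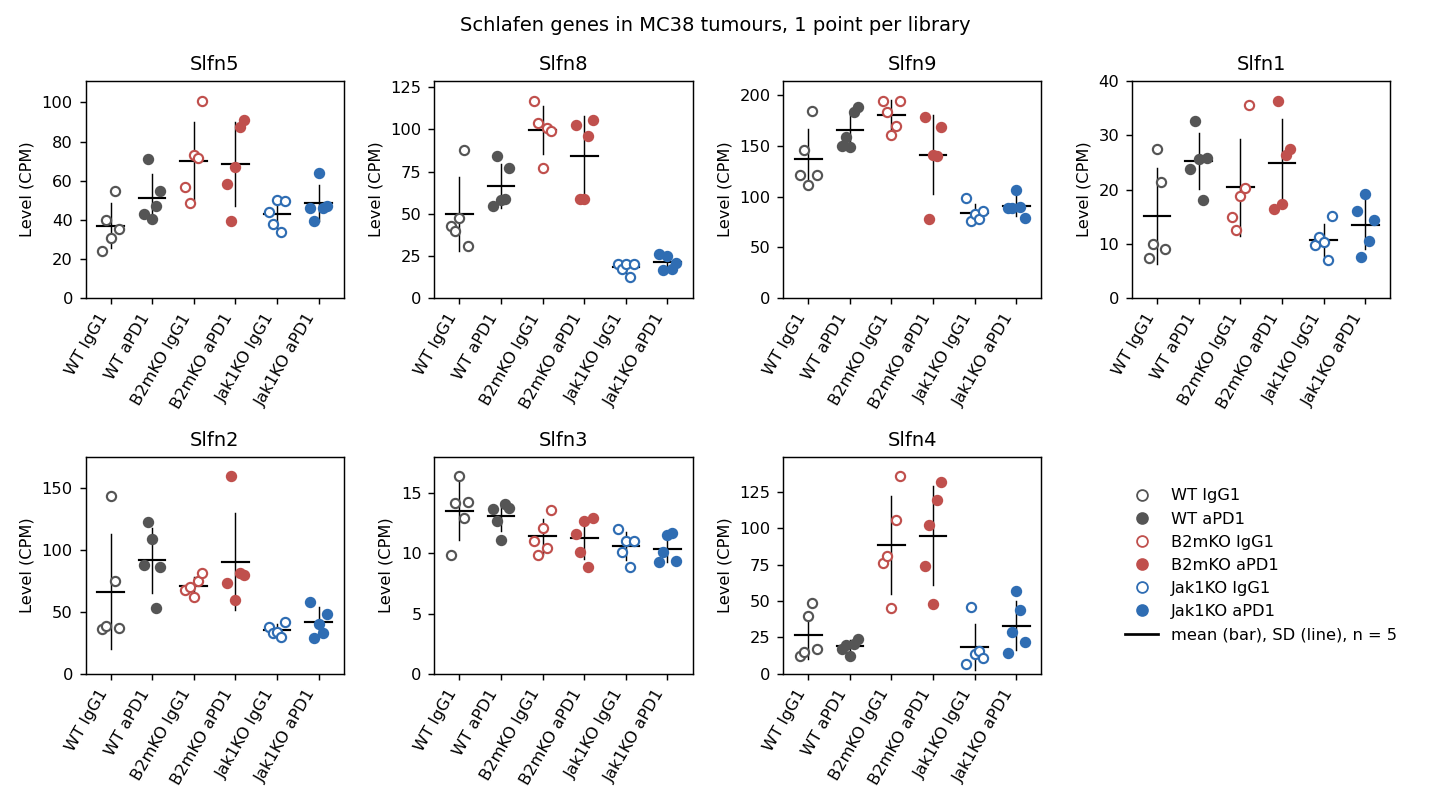
Level of each Schlafen gene (vertical axis, CPM, starting at 0) in the 5 libraries of each group (horizontal axis); open points are IgG1 and filled points aPD1, bars are means and lines SDs. Slfn8 in Jak1KO tumours (12.7 to 26.2 CPM) lies below every WT library (30.6 to 87.8 CPM), and Slfn4 is highest in B2mKO tumours.

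The long member Slfn8 separated the genotypes most clearly. In WT tumours given IgG1, Slfn8 was at 42.9, 40.0, 47.7, 87.8 and 30.6 CPM in replicates 1 to 5. In Jak1KO tumours given IgG1 it was at 20.1, 17.5, 20.5, 12.7 and 20.2 CPM, below all 5 WT libraries. In B2mKO tumours given IgG1 it was at 117, 104, 77.3, 101 and 99.0 CPM, above all WT libraries but replicate 4. Relative to WT, Slfn8 fell by 1.45 ± 0.23 (SE) on the log2 scale in Jak1KO tumours, to 0.37 times the WT level (edgeR quasi-likelihood test over all genes, adjusted p = 3.05e-05). In B2mKO tumours it rose by 1.00 ± 0.22, a 2.00-fold increase (adjusted p = 0.00175, edgeR). In bulk tissue, fewer cells of a type and less RNA per cell cannot be told apart.

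Under aPD1 the Jak1KO difference of Slfn8 was of like size. WT aPD1 libraries were at 54.6, 84.1, 58.0, 59.1 and 77.1 CPM and Jak1KO aPD1 libraries at 26.2, 16.5, 24.8, 17.5 and 21.0 CPM, with no overlap. The difference was -1.65 ± 0.23 on the log2 scale (adjusted p = 3.72e-06, edgeR). B2mKO aPD1 libraries were at 103, 58.6, 58.9, 95.8 and 105 CPM and overlapped the WT range. Their log2 difference from WT was 0.34 ± 0.22 (95% interval -0.11 to 0.79; adjusted p = 0.298), and Slfn8 was not called there. The order of group means was B2mKO IgG1, B2mKO aPD1, WT aPD1, WT IgG1, Jak1KO aPD1 and Jak1KO IgG1, and the gap between WT IgG1 and Jak1KO aPD1 was the only step whose neighbouring ranges did not overlap.

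Slfn9, the long neighbour whose promoter carries the same ISRE letters, moved the same way in Jak1KO tumours but less. It was at 121, 145, 112, 184 and 121 CPM in WT IgG1 tumours and at 98.4, 76.2, 82.8, 78.3 and 85.5 CPM in Jak1KO IgG1 tumours. The groups did not overlap, and the difference was -0.70 ± 0.15 on the log2 scale (adjusted p = 0.00167, edgeR). Under aPD1, WT libraries were at 149, 158, 149, 183 and 188 CPM and Jak1KO libraries at 88.6, 89.2, 107, 89.6 and 79.2 CPM, again apart, with a difference of -0.87 ± 0.15 (adjusted p = 0.000122). In B2mKO tumours given IgG1, Slfn9 was at 194, 183, 160, 170 and 193 CPM. That was 0.40 ± 0.15 higher than WT on the log2 scale, with an adjusted p of 0.0603 that missed the threshold of 0.05. DESeq2 called it (adjusted p = 0.0495). Without both libraries that stand apart, edgeR called it too (0.34 ± 0.11, adjusted p = 0.0266).

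Slfn5 is the long member with an ISRE core farther from its start, and it was called higher in B2mKO IgG1 tumours, as Slfn8 was, but in neither comparison of Jak1KO with WT. Whether its Jak1KO difference departs from those of Slfn8 and Slfn9 was not tested. It was at 24.3, 39.8, 30.6, 54.8 and 35.2 CPM in WT IgG1 tumours and at 56.9, 48.4, 73.0, 71.7 and 101 CPM in B2mKO IgG1 tumours. All B2mKO libraries but replicate 2 were above every WT library, and the rise was 0.93 ± 0.22 on the log2 scale (1.90-fold, adjusted p = 0.0038, edgeR). Jak1KO libraries at 44.2, 38.0, 49.9, 33.7 and 49.7 CPM all lay inside the WT range, 0.22 ± 0.22 from it (95% interval -0.23 to 0.68; adjusted p = 0.507). Under aPD1 the Jak1KO difference of Slfn5 was -0.07 ± 0.22 (interval -0.53 to 0.38; adjusted p = 0.852). Slfn5 under aPD1 in B2mKO tumours was 0.42 ± 0.22 above WT (adjusted p = 0.188), and 0.58 ± 0.22 without the libraries that stand apart (adjusted p = 0.0478, edgeR).

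**Figure D2:**
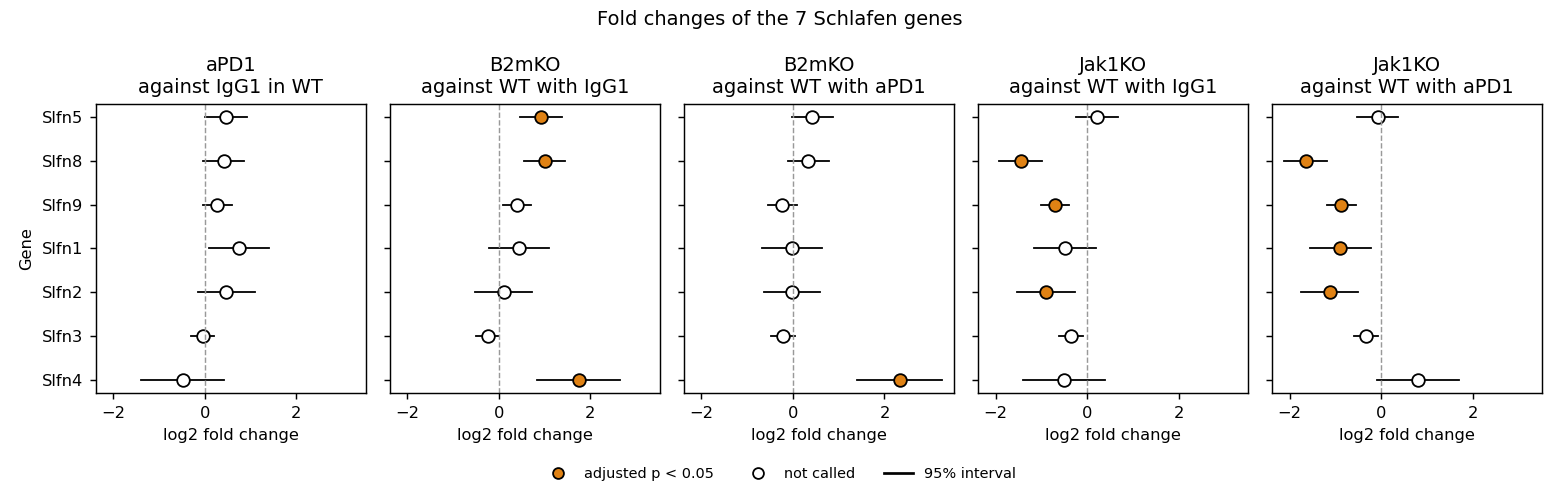
log2 fold change (horizontal axis) of each of the 7 Schlafen genes (vertical axis) in 5 comparisons; lines are 95% intervals and filled points have an adjusted p under 0.05 in edgeR's test over all genes. Slfn8 and Slfn9 are called lower in Jak1KO tumours under both antibodies, Slfn4 is called higher in B2mKO tumours under both, and no member is called for aPD1 in WT tumours.

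Slfn4, an intermediate member, had the largest rise of the family in B2mKO tumours. Given IgG1, WT libraries were at 12.3, 15.0, 39.4, 48.4 and 16.9 CPM and B2mKO libraries at 75.8, 80.6, 45.3, 105 and 135 CPM. All B2mKO libraries but replicate 3 were above every WT library, and the rise was 1.75 ± 0.44 on the log2 scale (3.36-fold, adjusted p = 0.00572, edgeR). Given aPD1, WT libraries were at 17.1, 20.1, 12.5, 20.8 and 23.8 CPM and B2mKO libraries at 73.7, 102, 47.7, 119 and 131 CPM. These did not overlap, and the rise was 2.33 ± 0.45 (5.03-fold, adjusted p = 0.000455). Jak1KO libraries were scattered: 7.06, 46.1, 13.7, 15.8 and 10.6 CPM with IgG1 and 14.5, 28.5, 56.7, 43.6 and 22.0 CPM with aPD1. The differences of Jak1KO from WT were -0.50 ± 0.44 and 0.81 ± 0.44 and were not called (adjusted p = 0.45 and 0.206).

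Slfn4 is known from myeloid cells, so markers of those cells were set beside it. The summed level of 12 macrophage and monocyte markers was 2304 to 3635 CPM in B2mKO IgG1 tumours and 1376 to 5691 CPM in WT IgG1 tumours. Of these 1 of 12 was called higher, Ly6c2 (1.79 ± 0.57, adjusted p = 0.0257, edgeR), where 9.4% of all genes were called higher. The summed level of 9 neutrophil markers was 280.5 to 537 CPM in B2mKO IgG1 and 141 to 299 CPM in WT IgG1 tumours, with 1 of 6 tested markers higher. That marker was Mmp9, a protease that other cells also make and that held most of the sum. Ly6g, which defines mouse neutrophils, had no read in either group, and S100a8 was at most 0.734 CPM in B2mKO IgG1 libraries. Fibroblast markers were called higher for 5 of 7 genes, with sums of 13799 to 31007 CPM against 6971 to 13237 CPM, and NK cell markers for 4 of 7, with sums of 12.9 to 24.8 CPM against 7.91 to 17.3 CPM. With aPD1, where the rise of Slfn4 was 5.03-fold, 5 of 7 fibroblast markers were called higher in B2mKO than in WT tumours (9660 to 22725 CPM against 4870 to 9769 CPM), as were 5 of 6 endothelial markers (93.8 to 201 CPM against 80.9 to 133 CPM). Of 12 macrophage and monocyte markers 1 was higher with aPD1, Mrc1 (1.76 ± 0.32), and of 7 NK cell markers 1 was higher and 1 lower. Of 6 tested neutrophil markers 1 was higher and 2 were lower. Of 7 tested dendritic cell markers 1 was higher and 3 were lower with aPD1, and 1 was higher with IgG1. The part of these cell types in the Slfn4 results was not tested.

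Slfn3, the other intermediate member, lies next to Slfn4 and varied little. Its group means ran from 10.4 ± 1.15 CPM (SD, n = 5) in Jak1KO aPD1 tumours to 13.5 ± 2.39 CPM in WT IgG1 tumours, with overlapping ranges between all neighbours in the order. It was called in no comparison by edgeR. The largest estimate of Slfn3 was -0.35 ± 0.13 for Jak1KO against WT with IgG1 (adjusted p = 0.0533). With aPD1 the Jak1KO estimate was -0.33 ± 0.13 (adjusted p = 0.0602). DESeq2 called Slfn3 lower in Jak1KO tumours under both antibodies (adjusted p = 0.0379 and 0.04).

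The short members Slfn2 and Slfn1 were called lower in Jak1KO than in WT tumours, Slfn2 with both antibodies and Slfn1 with aPD1, and neither was called in B2mKO against WT. Slfn2 was at 36.1, 38.4, 143, 74.8 and 37.4 CPM in WT IgG1 tumours and at 37.9, 32.8, 33.8, 29.9 and 42.1 CPM in Jak1KO IgG1 tumours. The difference was -0.90 ± 0.31 on the log2 scale (adjusted p = 0.0396, edgeR), but 3 WT libraries lay inside the Jak1KO range. Without WT IgG1 replicate 3, the library at 143 CPM, the difference was -0.40 ± 0.26 (adjusted p = 0.323), and the call was lost in 11 of 18 alternatives, among them limma voom, the replicate block (adjusted p = 0.0707), a fit without the filter and a fit of only these groups. Under aPD1 the fall of Slfn2 held more widely. WT libraries were at 87.4, 122, 108, 53.3 and 86.3 CPM, Jak1KO libraries at 58.2, 29.1, 40.6, 33.3 and 48.1 CPM, and the difference was -1.13 ± 0.31 (adjusted p = 0.00867, edgeR). In B2mKO tumours Slfn2 differed from WT by 0.11 ± 0.30 with IgG1 (adjusted p = 0.829) and -0.02 ± 0.30 with aPD1 (adjusted p = 0.978). Without the libraries that stand apart, the first was 0.62 ± 0.22 (adjusted p = 0.0439).

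Slfn1 was at 23.8, 32.6, 25.7, 18.2 and 25.7 CPM in WT aPD1 tumours and at 16.1, 7.62, 19.2, 10.6 and 14.3 CPM in Jak1KO aPD1 tumours. Replicate 3 of the Jak1KO group was above the lowest WT library, and all its other libraries were below. The difference was -0.89 ± 0.32 (adjusted p = 0.0483, edgeR). The call of Slfn1 was lost in 11 of 18 alternatives, with estimates between -1.05 and -0.74 over all 18. With IgG1 the Jak1KO difference of Slfn1 was -0.48 ± 0.33 (adjusted p = 0.315).

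Slfn2 and macrophage markers went together. The library with the most Slfn2, B2mKO aPD1 replicate 2 (159 CPM), and WT IgG1 replicate 3 (143 CPM) had summed macrophage and monocyte markers of 5700 and 5691 CPM, above the other libraries of their groups (3150 to 4115 and 1376 to 3358 CPM). These are the libraries that stand apart. Over all 30 libraries, after removal of group means, log2 Slfn2 and the log2 marker sum had r = 0.80, and Slfn1 had r = 0.71. For Slfn8 the value was 0.07 and for Slfn9 it was -0.35. Slfn2 went as closely with the summed level of 30 interferon gamma response genes (r = 0.81). With that sum Slfn1 had r = 0.64, Slfn8 0.59 and Slfn9 -0.03. Points share libraries, depth and scaling, and the 2 libraries that stand apart weigh on r. T cell markers summed to at most 70.3 CPM in any library and had r = 0.45 with Slfn2, and neutrophil markers had r = -0.02. Markers of other cell types were not correlated with it. Sums of different marker lists cannot be compared as amounts of cells, and which cells gave the Slfn2 reads was not tested. In Jak1KO IgG1 tumours the macrophage and monocyte marker sum (2392 to 3333 CPM) lay inside the WT range (1376 to 5691 CPM). With aPD1 it was 2276 to 3681 CPM against 2584 to 5901 CPM. In that aPD1 comparison, where Slfn1 and Slfn2 were called lower, 2 of 12 macrophage markers were called lower, Cd14 (-1.11 ± 0.28) and Csf1r (-0.75 ± 0.24), and 1 higher, Mrc1 (1.28 ± 0.31). The leukocyte gene Ptprc was lower as well (-0.88 ± 0.27, adjusted p = 0.0176, edgeR), as were 3 of 7 NK cell, 3 of 7 tested dendritic cell and 2 of 6 tested neutrophil markers. Another 1 of the 7 dendritic cell markers was higher, as were 2 of 7 fibroblast markers, and 0 of 13 T cell markers were called. The part of macrophage and other leukocyte content in the Slfn1 and Slfn2 results was not tested.

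**Figure D3:**
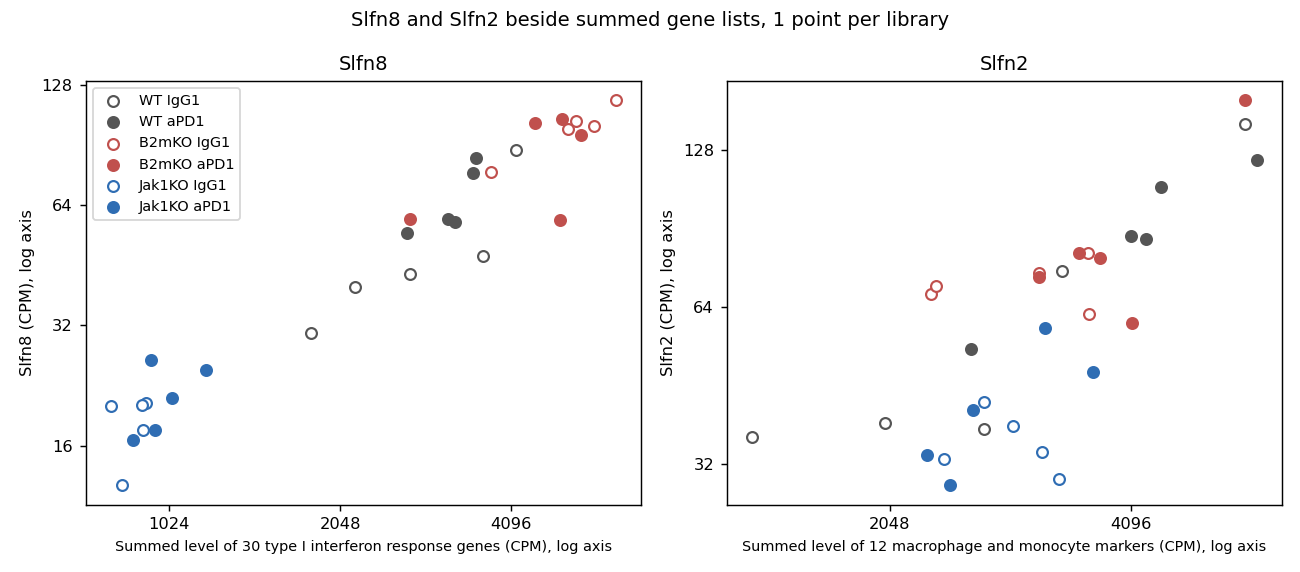
Level of Slfn8 (left) against the summed level of 30 type I interferon response genes, and of Slfn2 (right) against the summed level of 12 macrophage and monocyte markers (all in CPM, log axes); each point is a library. Jak1KO libraries sit at the lower left for Slfn8, with sums of 808 to 1190 CPM, and the libraries highest in Slfn2 are those with marker sums near 5700 CPM.

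Counted over the family, 1 to 4 of the 7 members were called in each comparison of a knockout with WT, and none was called for the antibody. B2mKO against WT with IgG1 gave 3 of 7 members called, all higher (Slfn4, Slfn5, Slfn8), where 21.1% of all genes were called in either direction and 9.4% higher. The median log2 difference of the 7 was 0.446 and that of all genes -0.000778. Jak1KO against WT with IgG1 gave 3 of 7, all lower (Slfn2, Slfn8, Slfn9), against 18.3% of all genes in either direction and 11% lower, with a median of -0.5 against 0.00241. With aPD1, B2mKO against WT gave 1 of 7 (Slfn4, higher), against 20.4% of all genes in either direction and 9.86% higher, a share near that background. Jak1KO against WT with aPD1 gave 4 of 7, all lower (Slfn1, Slfn2, Slfn8, Slfn9), against 20.8% of all genes in either direction and 12.4% lower, with a median of -0.868 against 0.0213. Both comparisons with each antibody share the WT libraries. Without the libraries that stand apart, B2mKO against WT gave 5 of 7 with IgG1, where 4188 of all 15678 genes tested were called. With aPD1 it gave 2 of 7, where 4662 of 15678 were called, a share near that of all genes.

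Set directly against each other, the knockouts differed for most of the family. With IgG1, 6 of 7 members were higher in B2mKO than in Jak1KO tumours, all but Slfn3, against 28.5% of all genes called in either direction and 14.5% called higher. Slfn8 differed 5.46-fold (2.45 ± 0.23 on the log2 scale, adjusted p = 4e-09, edgeR), Slfn4 by 2.25 ± 0.45, Slfn9 by 1.10 ± 0.15 and Slfn2 by 1.01 ± 0.31. The ranges of Slfn2, Slfn8 and Slfn9 did not overlap. With aPD1, 5 of 7 were higher (28.8% called in either direction, 15.1% higher): Slfn8 by 1.99 ± 0.23, Slfn4 by 1.52 ± 0.44, Slfn2 by 1.11 ± 0.31, Slfn1 by 0.87 ± 0.32 and Slfn9 by 0.64 ± 0.15. Slfn1 in both comparisons and Slfn5 with IgG1 lost the call when certain libraries were left out.

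Antibody treatment moved no member past the threshold. In WT tumours 0 of 7 members were called with edgeR, where 4.38% of all genes were, and 2 had an unadjusted p under 0.05: Slfn1 with 0.75 ± 0.32 (adjusted p = 0.215) and Slfn5 with 0.47 ± 0.22 (adjusted p = 0.259). Of all 15505 genes, 2793 had an unadjusted p under 0.05. DESeq2 also called 0 of 7 members, and 925 of all 15505 genes. The estimates were above 0 for 5 of 7 members, with a median of 0.42 against -0.0256 for all genes. This count depended on single libraries. Without WT IgG1 replicate 3, Slfn2 rose by 0.97 ± 0.26 (adjusted p = 0.0285), and without WT IgG1 replicate 4, Slfn8 rose by 0.72 ± 0.19 (adjusted p = 0.0245). Without both libraries that stand apart, Slfn1 (1.08 ± 0.32, adjusted p = 0.0484) and Slfn2 (0.97 ± 0.23, adjusted p = 0.0119) were called. Macrophage marker sums in WT aPD1 tumours were 2584 to 5901 CPM, and 1 of 12 markers was called higher. Ptprc rose by 1.01 ± 0.27 there (adjusted p = 0.0272, edgeR), and 3 of 7 tested dendritic cell, 2 of 7 NK cell, 2 of 13 T cell and 2 of 6 tested neutrophil markers were called higher. Their part in the Slfn1 and Slfn2 values was not tested.

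In B2mKO tumours aPD1 gave 0 of 7 members and 0% of all genes. Slfn9 had the smallest unadjusted p, with a difference of -0.35 ± 0.15 (adjusted p = 0.801), and was the only member under 0.05. Of all 15505 genes, 511 were under 0.05 unadjusted. In Jak1KO tumours 0 of 7 members and 0% of all genes were called, with no member at an unadjusted p under 0.05; the largest estimate was 0.83 ± 0.44 for Slfn4 (95% interval -0.07 to 1.73). The test of whether the aPD1 effect in B2mKO differed from that in WT called 0 of 7 members and 0.0967% of all genes. Slfn8 (-0.66 ± 0.31, adjusted p = 0.299) and Slfn9 (-0.63 ± 0.21, adjusted p = 0.219) had an unadjusted p under 0.05 there. That held for 2550 of all 15505 genes. The same test for Jak1KO called 0 of 7 and 0% of all genes, with 1 member, Slfn4, under 0.05 unadjusted (1.31 ± 0.62, adjusted p = 0.588). So were 1279 of all 15505 genes. DESeq2 gave 0 of 7 in these 4 comparisons as well, where it called 0, 0, 121 and 51 of all 15505 genes.

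The pseudogene Slfn10-ps, between Slfn8 and Slfn2, did pass the test for aPD1 in WT tumours. It was at 1.77, 3.82, 2.61, 5.11 and 1.89 CPM with IgG1 and at 6.89, 8.96, 4.66, 4.62 and 6.69 CPM with aPD1, a rise of 1.08 ± 0.26 on the log2 scale (adjusted p = 0.0168, edgeR). With IgG1 the pseudogene's B2mKO level exceeded that of WT by 0.76 ± 0.27 (adjusted p = 0.0417). Its transcripts share 19.7% of their 50-base windows with other Schlafen transcripts, most of them with Slfn9 and Slfn8, so reads of this gene are uncertain. The next expressed genes on either side of the cluster, Unc45b and AI662270, were called in no comparison.

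Since paralogues of such likeness lose reads that fit several places, neighbours were also compared by their ratio within each library. Of their 50-base windows, Slfn8 shares 14.6%, Slfn9 11.2%, Slfn4 8.15%, Slfn3 7.39%, Slfn2 4.27% and Slfn1 0.606% with other family members, and Slfn5 shares none. The log2 ratio of Slfn8 to Slfn9, per length, was -0.98 ± 0.39 (SD, n = 5) in WT IgG1, -0.32 ± 0.14 in B2mKO IgG1 and -1.68 ± 0.24 in Jak1KO IgG1 tumours. Both knockouts were apart from WT (exact two-sided permutation test, p = 0.00794, the smallest that 5 against 5 allows; adjusted p = 0.0238 over 15 ratio tests). With aPD1 the ratio was -0.78 ± 0.27 in WT, -0.19 ± 0.32 in B2mKO (exact permutation test, adjusted p = 0.0397) and -1.57 ± 0.28 in Jak1KO tumours (adjusted p = 0.0238). Slfn8 thus changed more than Slfn9 in the same direction in Jak1KO tumours under both antibodies. These tests were chosen after the levels were known, and with 4 libraries in a group the call was lost in 5 of 11 settings for Jak1KO with IgG1, 3 of 11 for B2mKO with IgG1 and 9 of 11 for B2mKO with aPD1.

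**Figure D4:**
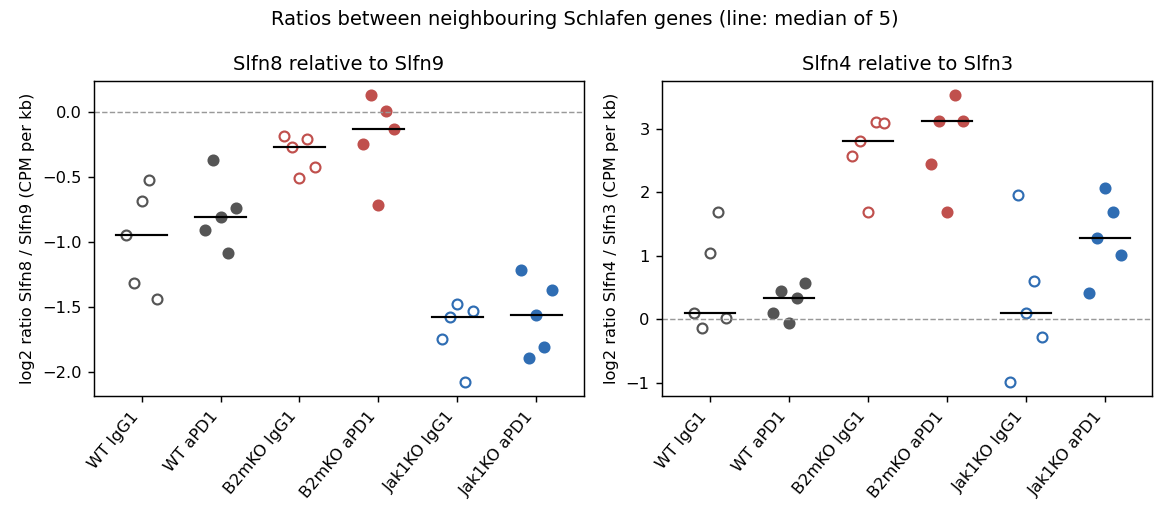
log2 ratio per kilobase of exon of Slfn8 to Slfn9 (left) and of Slfn4 to Slfn3 (right) in each library (points) by group, with the group median as a line. The Slfn8 to Slfn9 ratio has medians of -0.27 in B2mKO IgG1 and -1.58 in Jak1KO IgG1 tumours, and the Slfn4 to Slfn3 ratio is highest in B2mKO tumours.

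Slfn4 and Slfn3 share 252 such windows yet parted clearly in B2mKO tumours. Their log2 ratio was 0.55 ± 0.79 in WT IgG1 and 2.65 ± 0.59 in B2mKO IgG1 tumours, and 0.28 ± 0.25 and 2.78 ± 0.72 with aPD1 (exact permutation test, adjusted p = 0.0238 for both). Slfn1 and Slfn2 kept a ratio that differed between groups by -0.01 to 0.34 on the log2 scale, with no call in the same 5 comparisons (smallest adjusted p = 0.149, exact permutation test).

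The other genes of the interferon pathways give the setting of these changes. Of 30 type I interferon response genes, none of them a Schlafen gene, 29 were lower in Jak1KO than in WT tumours with either antibody, with medians of -1.46 and -1.59. In B2mKO tumours 22 of 30 were higher with IgG1 (median 0.925) and 12 of 30 with aPD1. Ifit1, an interferon-induced RNA-binding protein, fell by 2.96 ± 0.23 in Jak1KO IgG1 tumours (adjusted p = 2.17e-10, edgeR), and Ifih1, a sensor of double-stranded RNA, rose by 0.97 ± 0.14 in B2mKO IgG1 tumours (adjusted p = 9.5e-06). With aPD1 in WT tumours, where 4.38% of all genes were called, 1 of 30 was called, Ifi205 (0.90 ± 0.26, adjusted p = 0.0382). Of 30 interferon gamma response genes, 23 rose with aPD1 in WT tumours, such as Ido1, which breaks down tryptophan (3.14 ± 0.37), and Cd274, the ligand of PD-1 (1.96 ± 0.29). In Jak1KO tumours 22 of 30 were lower with IgG1 and 30 of 30 with aPD1, against 11% and 12.4% of all genes. In B2mKO tumours 4 of 30 were higher with IgG1, a share near the 9.4% of all genes. With aPD1 25 of 30 were lower there, against 1629 of 15505 genes in all. The Schlafen genes had 0 of 7 called for aPD1 in WT tumours, where the interferon gamma list had 23 of 30; that difference between lists was not tested.

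Among 13 interferon receptors, kinases and transcription factors, 7 were lower in Jak1KO than in WT tumours with IgG1 and 8 with aPD1. Of all genes, 11% and 12.4% were called lower. Jak1, the gene knocked out, is itself 1 of the 13 and is in both counts. The others included Stat2 (-1.63 ± 0.19 and -2.15 ± 0.20) and Irf9 (-1.51 ± 0.17 and -1.95 ± 0.17), factors that bind ISRE. In B2mKO IgG1 tumours 5 of 13 were higher, against 9.4% of all genes. Among these 5 were Stat2 (0.70 ± 0.19), Tyk2 (0.57 ± 0.15) and Jak1 (0.38 ± 0.099). Of 14 genes of T cell quiescence and activation, 3 rose with aPD1 in WT tumours, Il7r, the interleukin-7 receptor, by 1.72 ± 0.38. In Jak1KO tumours 5 of 14 were lower than in WT with IgG1 and 6 of 14 with aPD1, against 11% and 12.4% of all genes. With IgG1, S1pr1, a receptor that lymphocytes use to leave tissue, differed by -1.03 ± 0.19. T cell markers went the other way there, with 5 of 13 called higher, such as Cd4 (1.74 ± 0.36), against 1121 of 15505 genes. In Jak1KO IgG1 tumours the 14 genes summed to 913 to 1069 CPM and the T cell markers to 15.8 to 58.1 CPM. Which cells gave the reads of the 14 genes was not tested. Of 10 genes of RNA cleavage, nucleotide breakdown and antiviral defence, 7 were tested. Ang5 and Ang6 had no read in any group. Samhd1, an enzyme that breaks down nucleotides, rose with aPD1 in WT tumours (1.15 ± 0.19, adjusted p = 0.00117), and was the only one of the 7 to be called there. In B2mKO IgG1 tumours Eif2ak2, the RNA-sensing kinase PKR, was higher (0.91 ± 0.14) and Rnaseh2a lower (-0.52 ± 0.17). In Jak1KO against WT, 1 of the 7 was higher and 2 lower with IgG1, and 0 higher and 3 lower with aPD1. Of all genes, 18.3% and 20.8% were called there in either direction.

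The genes whose levels followed each member most closely, after removal of group means over the 30 libraries, differed along the family. For Slfn8 they were Oasl2 (r = 0.87), Stat2 (0.87) and Parp11 (0.85), and for Slfn9 they were Parp14 (0.90), Ankfy1 (0.90) and Etnk1 (0.89). For Slfn4 they were Isg20 (0.74), Trim30c (0.73) and Oasl1 (0.72). For Slfn2 they were Fuca2 (0.95), Cyba (0.93) and Slc31a2 (0.92), and for Slfn1 they were Ifi209 (0.94), Ms4a4c (0.93) and Phf11a (0.91). For Slfn5 they were Tlr9 (0.86), Ifi207 (0.84) and Tnfrsf11a (0.83), and for Slfn3 they were Wdr76 (0.82), Zfp638 (0.79) and Wdhd1 (0.78). Within the family the closest pair was Slfn1 and Slfn2 (r = 0.82), then Slfn8 and Slfn9 (0.63) and Slfn5 and Slfn9 (0.60). Slfn2 and Slfn9 had r = -0.34. With the summed type I interferon list, Slfn8 had r = 0.73, Slfn4 0.62, Slfn2 0.57, Slfn1 0.55, Slfn5 0.19, Slfn9 0.16 and Slfn3 -0.18. With the summed interferon gamma list, Slfn2 had r = 0.81, Slfn1 0.64, Slfn8 0.59, Slfn5 0.12, Slfn4 -0.02, Slfn9 -0.03 and Slfn3 -0.16. These values describe 30 libraries that share depth, scaling and cell content.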

How the data were processed

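The deposited values are raw counts per gene for 30 libraries. Per the file headers, the authors ran featureCounts 2.0.0 with the release 99 Ensembl annotation of GRCm38; no strand option and no option to count multi-mapping reads was set. The submitters' processing notes also list STAR 2.5.2a, FastQC 0.11.2, edgeR 3.24.3, Cufflinks 2.2.1 and mm10. Library totals were 17629795 to 25944701. The header of WT aPD1 replicate 2 carries the name of another alignment file; its counts were used as deposited. Groups came from the labels.

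Genes were kept with filterByExpr (minimum count 10, minimum total 15), scaled by TMM, and fitted for all 30 libraries in 1 robust quasi-likelihood model of 6 group means (R 4.3.3, edgeR 4.0.16). P-values were Benjamini-Hochberg adjusted over 15505 genes, with a threshold of 0.05, and the SE was derived from each log2 fold change and its F statistic. Log2 levels used a prior count of 2. The script was tested on simulated data. DESeq2 1.42.0 and limma 3.58.1 served as alternatives. Each of the 60 replicate pairs differed beyond counting error (chi-square per degree of freedom at least 6.49), and all 30 libraries entered as separate samples. The members, gene lists and tests were chosen with earlier results of these data known. Named genes are all members, the neighbours of the cluster, the 3 genes most correlated with each member that are neither Schlafen nor predicted genes, and up to 3 genes of each list by smallest p. Marker lists for other cell types were summed per library, and are given where they moved beside a member's result. The ratio tests were added after the values were seen.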

Additional observations from a re-analysis of the deposited data

Results flagged for a closer look

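In 42 sets of 5 libraries (7 members in 6 groups), 2 had a library far from the other 4 by Dixon's criterion, where chance gives about 1 in 20. Slfn2 was at 159 CPM in B2mKO aPD1 replicate 2, while the other 4 libraries of the group were between 59.7 and 81.0 CPM, so that the gap took 0.785 of the range against a critical value of 0.71. The same library had 5700 CPM of summed macrophage and monocyte markers. Slfn4 was at 46.1 CPM in Jak1KO IgG1 replicate 2, while the other 4 were between 7.06 and 15.8 CPM (0.776 of the range). No cause was tested for either.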

How the results depend on the processing

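Of the 22 combinations of member and comparison that passed the threshold, 17 kept direction and call in all 18 alternatives, and none reversed. Those that lost the call in some were Slfn1 in both B2mKO against Jak1KO comparisons and in Jak1KO against WT with aPD1, Slfn2 in Jak1KO against WT with IgG1, and Slfn5 in B2mKO against Jak1KO with IgG1. The members called changed without WT IgG1 replicate 3 and B2mKO aPD1 replicate 2 together. They moved from 0 to 2 for aPD1 in WT, from 3 to 5 for B2mKO against WT with IgG1 and from 1 to 2 with aPD1. Calls over all genes moved as well, in that order from 679 of 15505 to 930 of 15678, from 3270 to 4188 and from 3158 to 4662. The cause was not tested. With 1 library left out, counts were 0 to 1 for aPD1 in WT, 3 to 4 and 1 to 1 for B2mKO against WT with IgG1 and aPD1, 2 to 4 and 3 to 4 for Jak1KO against WT, 4 to 6 and 4 to 5 for B2mKO against Jak1KO, and 0 to 0 elsewhere. All-gene calls in those fits were 230 to 1107 for aPD1 in WT, and 2315 to 3930 and 2418 to 3298 for B2mKO against WT. They were 2234 to 3014 and 2417 to 3300 for Jak1KO against WT, and 3667 to 4409 and 3728 to 4612 for B2mKO against Jak1KO. For differences between aPD1 effects they were 0 to 158 in B2mKO minus WT and 0 to 128 in Jak1KO minus WT.

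Replicate numbers were not taken to pair the libraries, since no comparison had all 5 same-numbered pairs correlated above 0.1. Counts were 4 of 5 for aPD1 in Jak1KO (lowest r 0.094) and for B2mKO against WT with IgG1 (lowest r -0.18), and 0 to 2 of 5 elsewhere. With the replicate block, calls were 3 and 1 for B2mKO against WT and 2 and 3 for Jak1KO against WT (IgG1, aPD1). They were 6 and 5 for B2mKO against Jak1KO, and 0 elsewhere. Of all 15505 genes, 3091 and 2993, 2679 and 3062, and 4314 and 4302 were called in that order, and 564 for aPD1 in WT. The block's estimate for Slfn2 in B2mKO against WT with aPD1 was 0.0049.

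Estimates that changed sign were all uncalled. They were Slfn2 in B2mKO against WT with aPD1 (0.0016 with only the groups compared) and, for the Jak1KO minus WT aPD1 effect, Slfn3 (-0.0051 in limma voom). Without both libraries that stand apart they were Slfn3 for aPD1 in WT (0.033) and in B2mKO (0.020), Slfn5 for aPD1 in B2mKO (0.12), Slfn3 for the B2mKO minus WT and Jak1KO minus WT aPD1 effects (-0.013 and -0.063), and the Slfn1 to Slfn2 ratio in B2mKO against WT with aPD1 (0.061). With 1 library left out, the ranges that crossed 0 were, for B2mKO against WT, Slfn1 with aPD1 (-0.18 to 0.095), Slfn2 with IgG1 (-0.049 to 0.61) and with aPD1 (-0.31 to 0.11), and the Slfn1 to Slfn2 ratio with aPD1 (-0.089 to 0.068). For aPD1 they were Slfn3 in B2mKO (-0.076 to 0.054), Jak1KO (-0.087 to 0.018) and WT (-0.14 to 0.032), Slfn4 in B2mKO (-0.065 to 0.31), Slfn5 in B2mKO (-0.16 to 0.13) and the Slfn4 to Slfn3 ratio in WT (-0.43 to 0.020). For Jak1KO against WT they were Slfn5 with aPD1 (-0.19 to 0.072) and the Slfn4 to Slfn3 ratio with IgG1 (-0.69 to 0.053). For differences between aPD1 effects they were Slfn2 (-0.62 to 0.033) and Slfn3 (-0.052 to 0.12) in B2mKO minus WT, and Slfn3 in Jak1KO minus WT (-0.062 to 0.11).

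Low counts limit Slfn10-ps (42 to 188 reads per library) and the neighbour Unc45b (3 to 58).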
